A study of Mus musculus with 6 samples.

Results

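Jun peaks were examined in windows around 5 genes that carry signals through the growth plate: Ihh, Pthlh, Pth1r, Ptch1 and Fgfr3. A peak belonged to a window when its midpoint fell between the window's bounds on the mouse genome build mm9. The bounds enclose 110 kb for Ihh, Pthlh and Pth1r, 100 kb for Fgfr3 and 140 kb for Ptch1. By this rule 54 of the 99162 deposited Jun peaks were members: 8 in the Ihh window, 5 in the Pthlh window, 13 in the Pth1r window, 14 in the Ptch1 window and 14 in the Fgfr3 window. The study combined Jun and Sox9 binding maps with RNA-seq to ask how AP-1 factors act in chondrocytes that become hypertrophic. The Jun ChIP-seq library came from untreated wild-type ICR mice at postnatal day 1, whose rib chondrocytes were released by enzyme digestion and cross-linked at once. A library of input DNA came from the same kind of cells. The 4 RNA-seq libraries of the series, from Swiss Webster mice with a Col10a1mCherry reporter, were not analysed here. The rib preparation mixes chondrocytes of all stages, so a peak cannot be assigned to resting, proliferating or hypertrophic cells. The list holds positions only and gives no height, score or read depth, and there is 1 Jun library. No peak therefore has a replicate check, and no p-value is given. The cell type could not be checked against marker genes, because a peak list holds no expression values.

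In the growth plate, chondrocytes proliferate in columns and then enlarge. Indian hedgehog (Ihh) is secreted by cells that are about to enlarge, acts through its receptor Patched 1 (Ptch1) and maintains the production of parathyroid hormone-related protein (Pthlh) near the end of the bone. Pthlh in turn acts on its receptor Pth1r on proliferating and prehypertrophic cells and delays hypertrophy, which closes a feedback loop. Fibroblast growth factor receptor 3 (Fgfr3) restrains chondrocyte proliferation. Jun is a subunit of AP-1, a dimeric transcription factor that recognises the sequence TGACTCA or its reverse complement TGAGTCA.

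Sequence under the peaks was not used here, because no mm9 genome was at hand. The promoters of the 5 genes were read instead from RefSeq (build GRCm38.p6), which has 8 promoters for them, 3 for Pth1r, 2 for Fgfr3 and 1 for each of the others. None of the 8 holds TGACTCA or TGAGTCA, which together cover both strands, in the 250 bases before the start. The motif stands in 4.46% of all 32851 promoters searched in the same way, so 0 of 8 does not set these genes apart. One promoter each of Ihh, Pthlh, Ptch1 and Fgfr3 is shown with 27 bases around a stretch that differs least from the motif. Where several stretches tie, the one farthest before the start is shown. Capitals mark that 7-base stretch, so that the letters can be compared.
Ihh, minus strand: cagggtggggTGAGGCCcgtcaggagg
Pthlh, minus strand: tggggctccgTGGCTCCgggctcccct
Ptch1, minus strand: ccggcatcgtTGAGACTcgccgggtac
Fgfr3, plus strand, promoter 2: ccctccggagTAACTCAgtgctctcct
The Fgfr3 stretch differs from the motif by 1 base and begins 24 bases before its start. In promoter 1 of Fgfr3, not shown, the closest stretch differs by 2 bases. A stretch with at most 1 difference is found in 46.5% of all promoters. The stretches of the other promoters shown differ by 2 bases. Because the build differs from that of the peaks, it is not known whether a Jun peak covers any of these promoters.

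The 5 windows together were denser in Jun peaks than the autosomes as a whole. They held 94.7 peaks per Mb (95% exact Poisson interval 71.2 to 123.6), against 40.7 per Mb over the spans of the 19 autosomes, a ratio of 2.33. The order ran from Fgfr3 at 140.0 peaks per Mb (76.5 to 234.9) through Pth1r at 118.2 (62.9 to 202.1), Ptch1 at 100.0 (54.7 to 167.8) and Ihh at 72.7 (31.4 to 143.3) to Pthlh at 45.5 (14.8 to 106.1). The intervals of the 3 receptor windows lay above the autosomal density, and those of the 2 ligand windows included it. The intervals cover counting error only and are too narrow for peaks that lie in groups. With peaks less than 1000 bp apart joined into regions, the same 3 windows lay above the autosomal density of 30.4 regions per Mb, and the ratio over all windows was 2.14.

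**Figure D1:**
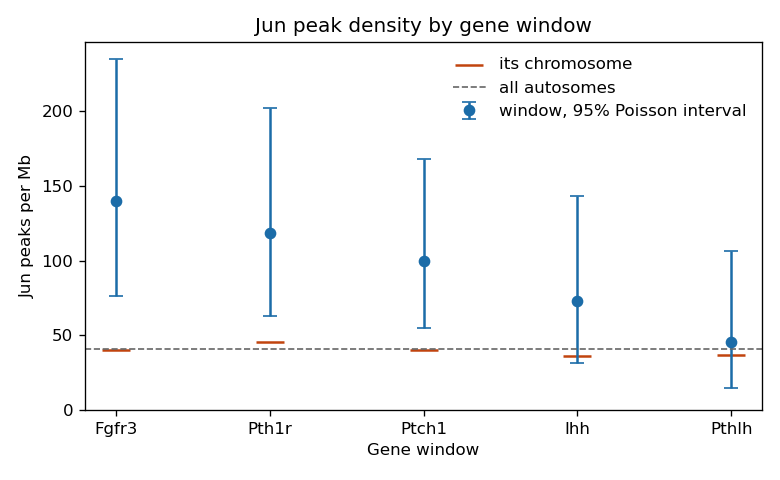
Jun peaks per Mb (vertical axis) in each gene window, in falling order, with 95% exact Poisson intervals; short bars give the density of the window's chromosome and the dashed line that of all autosomes. The Fgfr3, Pth1r and Ptch1 intervals lie above the dashed line, and the Ihh and Pthlh intervals cross it.

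The windows themselves were hardly separable by density. Of the 10 pairs of windows, 9 had a density ratio whose exact conditional binomial interval included 1. This held for all 4 neighbouring pairs in the order, whose ratios were 1.18 (0.52 to 2.74) for Fgfr3 over Pth1r, 1.18 (0.51 to 2.71) for Pth1r over Ptch1, 1.38 (0.54 to 3.78) for Ptch1 over Ihh and 1.60 (0.46 to 6.22) for Ihh over Pthlh. The remaining pair was the extremes, with Fgfr3 3.08 times as dense as Pthlh (1.05 to 10.9). The order also depended on where the windows end. When each was narrowed by 20 kb on both sides, Pth1r led with 171.4 per Mb and Fgfr3 fell to 100.0, below Ptch1 with 130.0.

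High counts of this kind were common along the autosomes. Tiles of the same length as each window, laid end to end from the first to the last peak of every autosome, held at least as many peaks as the Fgfr3 window in 6.71% of 23995 cases. The share was 9.77% for Pth1r and 12.9% for Ptch1, and it rose to 21.7% for Ihh and 34.7% for Pthlh. None of the windows was near the fullest tiles, which held 100 peaks at 100 kb and 117 at 140 kb. Much of the comparison was sequence without peaks: 33.1% of the 110 kb tiles held none. Among tiles with at least 1 peak the shares were 10.2% for Fgfr3, 14.6% for Pth1r, 18.4% for Ptch1, 32.4% for Ihh and 51.8% for Pthlh. The Pthlh count of 5 equalled the median of those occupied tiles. Whether windows around other genes are as dense was not determined, since gene positions on mm9 were not used here.

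**Figure D2:**
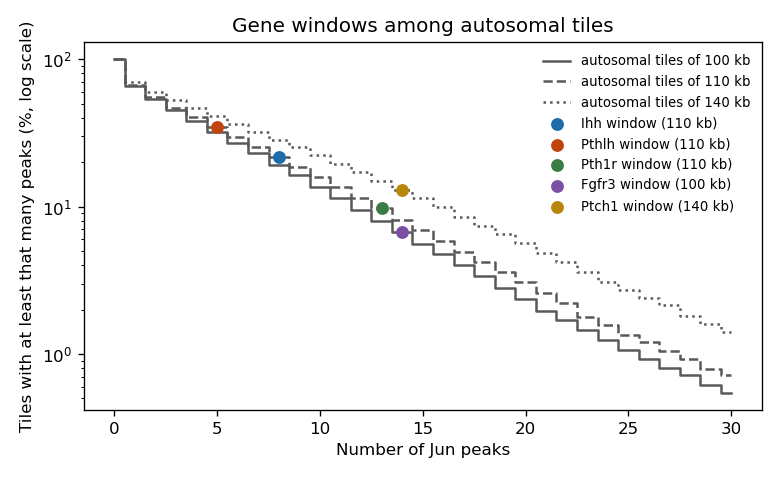
Percentage of autosomal tiles (log scale) that hold at least the number of Jun peaks on the horizontal axis, for tiles of 100, 110 and 140 kb, with each gene window as a point. The Fgfr3 point lies lowest, at 6.71% of tiles, and the Pthlh point highest, at 34.7%.

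The Ihh window (chr1:74940001-75050000) held scattered peaks and a single cluster. Protein-coding neighbours of Ihh in RefSeq's gene order are Cfap65 on one side and Nhej1 on the other, and the introns of Nhej1 are known to contain enhancers of Ihh. Which of these genes each peak lies in was not determined. Of the 8 peaks, 4 formed a group of 3.62 kb, at 75011179 to 75014799. Its members measured 135, 171, 141 and 117 bp, and the 171 bp and 141 bp peaks had the closest centres of the window, 262 bp apart. The other 4 peaks, of 120, 118, 129 and 153 bp, each stood more than 10 kb from any other member. The first of them, chr1:74947600-74947719, had a further peak within 10 kb just beyond the window's lower bound, 242 bp outside it. A peak close to the centre of the window, chr1:74998240-74998368, was the last listed member of all, at place 98638 of 99162. After the group came the longest stretch without a peak, 32.8 kb. All Ihh peaks measured between 117 and 171 bp. The 110 kb before the window held 14 peaks and the 110 kb after it 8, so neither side held fewer than the window.

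The Pthlh window (chr6:147150001-147260000) was the emptiest. The nearest protein-coding neighbours of Pthlh in RefSeq's order are Klhl42 and Ccdc91. The genes of any type directly beside Pthlh are a long non-coding RNA gene and a pseudogene. No peak fell in the first 59.5 kb of the window. Then 4 peaks followed within 7.73 kb, at 147209434 to 147217162, with widths of 123, 56, 141 and 111 bp. The 56 bp peak and the 141 bp peak, chr6:147212561-147212701, which is the widest of the window, were 393.5 bp apart from centre to centre. The fifth peak, of 105 bp, lay 42.0 kb further on and only 941 bp inside the upper bound. It was also the first of the 5 in the deposited list, at place 19838. Beyond that bound the next peak was 78095 bp away. Equal lengths on either side of the window held 7 and 2 peaks.

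**Figure D3:**
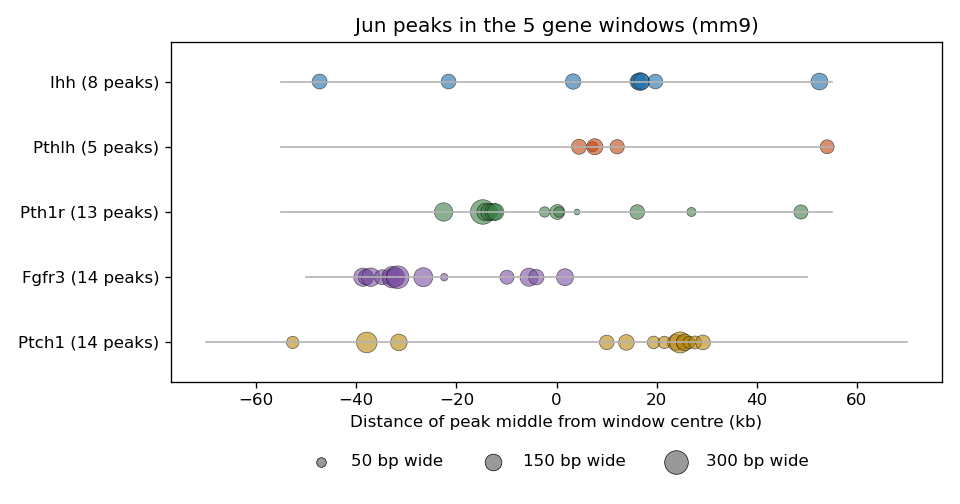
Position of each of the 54 Jun peaks as distance of its middle from the window centre (kb), with one line per window drawn over its length and symbol area in proportion to peak width. Compact groups stand out at 16.2 to 19.7 kb in Ihh, on both sides of the centre in Pth1r, left of the centre in Fgfr3 and at 10.0 to 29.3 kb in Ptch1.

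The Pth1r window (chr9:110580001-110690000) held 1 large group and 3 lone peaks, and its surroundings were sparse on one side. The protein-coding genes next to Pth1r in RefSeq's order are Ccdc12 and Myl3, the latter a myosin light chain gene of heart and slow muscle. The group joined 10 of the 13 peaks over 26.8 kb (110612342 to 110639097). Its core was a run of 5 peaks of 326, 167, 151, 161 and 148 bp whose centres were 450.5 to 852 bp apart. The first of the run, chr9:110620100-110620425, was the widest of all 54 members. The other end of the group was different: its last 4 peaks measured 59, 120, 58 and 18 bp, and the 18 bp peak was the narrowest member. The 3 lone peaks measured 115, 45 and 108 bp. The lone peak of 108 bp, chr9:110683767-110683874, stood at place 3685 in the list, far before the other members of the window, which began at 34206. The 110 kb before the window held 1 peak and the 110 kb after it 13. When peaks were grouped within 5 kb in place of 10 kb, the fullest Pth1r group had 5 peaks in place of 10.

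The Ptch1 window (chr13:63570001-63710000) was dominated by one compact group. Ptch1 lies between Fancc and Ercc6l2 among protein-coding genes, and a long non-coding RNA gene stands next to it on the Ercc6l2 side. The group held 11 of the 14 peaks within 19.3 kb, from 63649970 to 63669314, and was the fullest group of all 5 windows. Its members measured 78 to 151 bp, except for chr13:63664568-63664808, of 241 bp, which is the widest of the window. Centres in the group lay closest at the 95 bp and 151 bp peaks that followed it, 349 bp apart. The other 3 peaks, of 82, 230 and 150 bp, lay before the group and were separated from it by 41.5 kb without a peak. From the last peak to the upper bound no peak was listed over 40.7 kb. Flanking lengths of 140 kb held 13 and 16 peaks, similar to the 14 of the window, so the Ptch1 count was close to that of its surroundings.

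The Fgfr3 window (chr5:34020001-34120000) held peaks only in its first 51.7 kb. The next protein-coding genes in RefSeq's order are Tacc3, a spindle protein gene, and Letm1, which encodes a mitochondrial membrane protein. The peaks formed 2 groups, and no Fgfr3 peak was alone. The first group held 10 peaks in 16.3 kb (34031233 to 34047571), and the second held 4 peaks in 11.7 kb (34060041 to 34071772). In the first, a run of 4 peaks of 139, 248, 182 and 276 bp had centres 319.5, 625 and 382 bp apart, and its last peak, chr5:34038118-34038393, was the widest of the window. The remaining 6 peaks of that group measured 180, 127, 185, 120, 195 and 30 bp. The second group measured 107, 177, 127 and 155 bp. After it, 48.3 kb up to the upper bound had no peak. With 9 and 7 peaks in the flanking lengths of 100 kb, the Fgfr3 window held more than either side. The exact Poisson interval of its 14 peaks, 7.65 to 23.5, includes 9 but not 7. That interval is too narrow for grouped peaks and leaves out the counting error of the flank counts. Widened by 20 kb on each side, the window had 142.9 peaks per Mb, against 140.0 as set.

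The Fgfr3 peaks also had the largest median width, although the widest single member, of 326 bp, was in Pth1r. The Fgfr3 median was 166 bp (central 50% of peaks 127 to 184 bp), against 132 bp for Ihh, 120 bp for Pth1r, 116.5 bp for Ptch1 and 111 bp for Pthlh. The central 50% of the Ihh peaks, 119.5 to 144 bp, and of the Pth1r peaks, 59 to 161 bp, overlapped that of Fgfr3. No interval was computed for the differences between windows. Over all members the median was 128 bp (exact 95% interval of the median 118 to 148), beside 114 bp for the 97800 autosomal peaks. Wide peaks were not more frequent among members: 5 of 54 (9.26%, exact binomial 95% interval 3.08 to 20.3) reached 200 bp, against 14.0% on the autosomes. Those 5 were 2 in Fgfr3, 2 in Ptch1 and 1 in Pth1r. Peaks under 50 bp, 2 in Pth1r and 1 in Fgfr3, made up 3 of the 54 members (5.56%), against 6.30% on the autosomes. Jun peaks covered 2.25% of the Fgfr3 window, 1.51% of the Pth1r, 1.28% of the Ptch1, 0.985% of the Ihh and 0.487% of the Pthlh window, beside 0.556% of the autosomal spans.

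Most member peaks had another peak nearby, as most autosomal peaks did. For 38 of the 54 (70.4%, exact binomial 95% interval 56.4 to 82.0) the next peak centre was within 10 kb, against 61.6% of autosomal peaks, a value inside the interval. By window, the next centre was within 10 kb for 12 of 14 Fgfr3, 11 of 14 Ptch1, 9 of 13 Pth1r, 3 of 5 Pthlh and 3 of 8 Ihh peaks. The exact binomial 95% intervals of these shares overlapped, from 57.2% to 98.2% for Fgfr3 to 8.52% to 75.5% for Ihh. Lone peaks, with none other within 10 kb, made up 8 of the 54 members (14.8%) and 19.1% of the autosomal peaks. They were 3 in Ihh, 3 in Pth1r, 1 in Pthlh and 1 in Ptch1.

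Members stood late in the deposited list, whose order is not explained. Their median place was at 67.9% of the list (exact 95% interval of the median 50.0 to 77.4), beside 49.8% for autosomal peaks. The last 25% of the list held 25 of the 54 members (46.3%, 32.6 to 60.4), against 24.9% of autosomal peaks. Pth1r had the largest part in this, with 9 of its 13 peaks there and a median place at 77.7%. Pthlh followed at 70.4%, Fgfr3 at 64.1%, Ihh at 61.2% and Ptch1 at 56.7%. Without the Pth1r window the median place of the others was 63.3%. The intervals in this paragraph treat grouped peaks as separate observations and are too narrow. The 24 members with another centre within 1 kb had a median place at 77.4%, and the 30 others at 43.6%. The same split of autosomal peaks gave 51.8% and 48.8%. Members in the first 10% of the list numbered 3 (5.56%, exact binomial 95% interval 1.16 to 15.4), against 10.1% of autosomal peaks. That autosomal value lies inside the interval. These members were the Fgfr3 peaks chr5:34035069-34035188 (place 3390) and chr5:34060041-34060147 (place 6111) and the lone Pth1r peak of 108 bp. These early peaks measured 120, 107 and 108 bp.

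**Figure D4:**
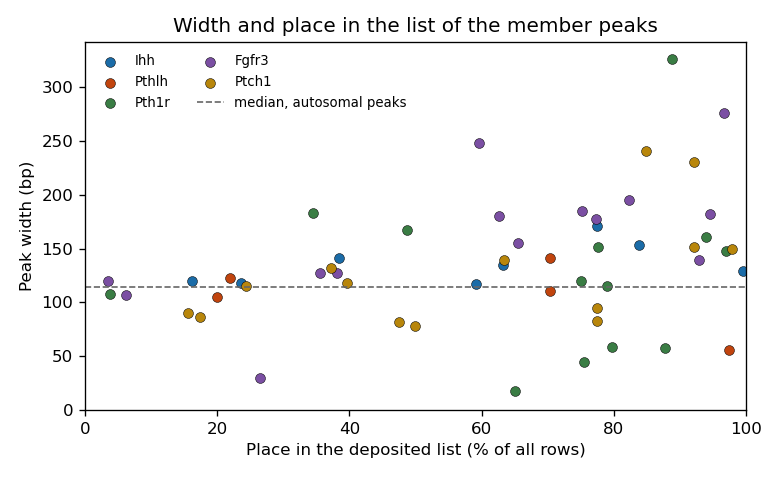
Width of each member peak (bp) against its place in the deposited list (percent of all rows), coloured by gene window; the dashed line is the autosomal median width of 114 bp. The 5 peaks of 200 bp or more, found in Fgfr3, Ptch1 and Pth1r, all lie beyond the middle of the list, as do 34 of all 54 members. The place of wide autosomal peaks was not determined. The 3 earliest peaks lie near the dashed line.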

How the data were processed

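The authors deposited the Jun peaks as chromosome, start and end on mm9, the build named in the submitters' processing notes, without header or score. No source used here names the aligner, the peak caller or how the input was used; the list's name carries an FDR mark that nothing explains, so no threshold is given. The list names no sample and was taken as that of the 1 Jun library. Each precipitation took 20000000 cells, fixed in 1% formaldehyde, and 9 μg of antibody on fragments of 100 to 600 bp, per the labels' protocols.

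Peaks were counted by midpoint, with positions from 1, in Python 3.11.15 (numpy 2.4.6, pandas 2.3.3); scipy 1.17.1 gave the intervals and matplotlib 3.10.9 the figures. Groups join centres within 10 kb. Counting, grouping and tiling were tested on simulated data. Genes, lists and windows were chosen with earlier results of these data known. Named in each window, by rule, were its widest and first-listed peak, edge peaks, fullest group, closest pair and longest empty stretch. RefSeq (GRCm38.p6) gave promoters and gene order only, since coordinates were not converted; 1 gene's promoter sequence is not reported here. Peaks at 27 further pathway genes were not counted without mm9 positions. Only 19 of the 27 had a promoter, so the motif check over that list is void.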

Additional observations from a re-analysis of the deposited data

How the results depend on the processing

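Over the 5 windows, the 54 peaks stayed 54 when any overlap counted, and became 51 without peaks narrower than 50 bp and 37 when merged within 1000 bp. Taking the first or last 50% of the list, chosen after seeing the data, left 20 and 34 peaks, since members stood late in the list. Density was 87.0 per Mb with windows widened by 20 kb and 110.8 with windows narrowed. The median share of tiles at least as full, 12.9%, was 13.1% with shifted tiles, 18.4% among occupied tiles, 10.5% on the same chromosome, 14.8% with merged regions, 12.2% without the narrowest peaks, 31.4% in the first 50% of the list and 13.8% in the last 50%. In the last 50% the share fell to 3.67% for Pth1r, which was 31.4% in the first; the cause was not tested. The share of members with a next centre within 10 kb, 70.4%, was 54.1% with merged regions, and 38.9%, 59.3% and 96.3% at 2, 5 and 50 kb. The fullest group held 9 peaks when chained within 5 kb (Ptch1) and 14 within 20 kb (Fgfr3), against 11. Median width was 120 to 132 bp, and the median place 63.3% to 70.4% with each window left out. No paired analysis was possible because there is 1 Jun library and no replicate. Without read depth, a stretch with no listed peak cannot be called unbound.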

Other observations

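Closely spaced member peaks stood late in the list. Of the 54 members, 24 (44.4%) had a neighbouring centre within 1 kb, against 39.1% of autosomal peaks. None of these 24 was in the first 25% of the list and 15 (62.5%) were in the last 25%. Among the 38274 autosomal peaks with such a neighbour, 24.5% were in the first 25% and 26.4% in the last 25%. The 30 members without a close neighbour had 10 peaks (33.3%) in the first 25% and 10 (33.3%) in the last 25%. Among autosomal peaks without one, 25.5% were in the first 25% and 23.8% in the last 25%. Their median place was at 48.8%, against 51.8% for autosomal peaks with a close neighbour. For members the median place was at 43.6% without a close neighbour and at 77.4% for the close ones. The close peaks were also wider, with a median of 149.5 bp against 117.5 bp, while the same split of autosomal peaks gave 117.5 and 112 bp. This split was chosen after the values were seen, and the 24 peaks share a few groups, so that they do not count as separate observations. In each of the 5 windows the first-listed peak was therefore one without a close neighbour.

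Some members of one window stood within 5 rows of each other in the list although the list is not in genomic order. The Pthlh peaks of 141 and 111 bp occupied places 69821 and 69822, with centres 4476 bp apart. The Ptch1 peaks of 95 and 83 bp were at places 76797 and 76799, with centres 3711 bp apart. Another Ptch1 pair, of 151 and 230 bp, was at places 91410 and 91414, with centres 63498.5 bp apart. Over the whole list, the row before a peak lay within 1 Mb of it for 0.141% of rows in the first 10% of the list and for 6.38% between 60% and 70%. The share was 4.25% between 70% and 80% and 3.77% between 90% and 100%, the parts of the list where these pairs stood. It counts only the row directly before a peak, so it is not a like measure for pairs within 5 rows in 1 window.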
